A study of Mus musculus with 34 samples.

Results

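The genes described are 10 apolipoproteins measured in mouse liver: Apoa1, Apoa2, Apoa4, Apoa5, Apob, Apoc1, Apoc2, Apoc3, Apoe and Apom. They were chosen by name, and each was read from the probe sets that carry its symbol and no other; where a gene had several, the probe set of highest mean signal over all arrays stood for it. All 10 had such a probe set and all 10 were among the 13099 genes tested, out of 18193 genes with a probe set of a single symbol. The 34 arrays hold 1 liver or tumour sample each. The week 48 groups were tumours of transgenic mice (5 samples), livers of peretinoin-fed transgenic mice (5), livers of transgenic mice on the basal diet (5) and wild-type livers (4); the week 20 groups were livers of peretinoin-fed transgenic mice (5), of transgenic mice on the basal diet (5) and of wild-type mice (5). Wild-type livers and tumours also came from mice on the basal diet, without peretinoin. All mice were of the C57/B6 strain. The transgene, Pdgf-c Tg, carries platelet-derived growth factor C, a growth factor of mesenchymal cells; the promoter that drives it was not given in the sources used here, nor whether tumours and livers share mice. Peretinoin is an acyclic retinoid, given at 0.06% of the diet from weaning at week 4. Where the labels do not say that samples of a group came from separate mice, p-values measure only the spread between these samples.

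Apolipoproteins are the protein coats of lipoproteins, the particles that carry triglyceride and cholesterol in blood, and the liver makes most of them. Apob is the structural protein of very low density lipoprotein (VLDL) and its remnants, Apoa1 and Apoa2 are the main proteins of high density lipoprotein (HDL), and the small C apolipoproteins with Apoe and Apoa5 set how fast lipoprotein lipase and liver receptors clear the particles. In the mouse, Apoa4 is made by both intestine and liver and rises with the lipid load of the liver, and Apom carries sphingosine-1-phosphate on HDL. 4 of the genes, Apoa1, Apoc3, Apoa4 and Apoa5, lie in a cluster on chromosome 9, and 3, Apoe, Apoc1 and Apoc2, in a cluster on chromosome 7; Apoa2 lies on chromosome 1, Apob on chromosome 12 and Apom on chromosome 17.

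The files hold signals, not counts, so the number of arrays limits the precision. The liver label held for each group: signals of Alb, the gene of albumin, lay between 19641 and 41904 on all 34 arrays. On 6 arrays, muscle or pancreatic acinar genes stood at least 3 log2 units above their median: muscle genes on 5 (wild-type week 48 replicate 4, transgenic week 48 replicate 4, transgenic peretinoin week 20 replicates 3 and 5, transgenic peretinoin week 48 replicate 1) and acinar genes on 2 (transgenic week 20 replicate 5, transgenic week 48 replicate 4). Pdgfc itself changed by -0.10 ± 0.20 (log2 ± SE) between transgenic and wild-type livers at week 20 (adjusted p = 0.757) and by 0.65 ± 0.21 at week 48 (adjusted p = 0.0272); its probe set may not match the transgene, so this does not check the genotype labels. In bulk liver, fewer cells of a type and less RNA per cell cannot be told apart.

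The 10 genes covered a wide range of the signal scale. Apoa1 was the brightest probe set of the whole array on 16 of 34 arrays and never fell below 89.0% of the array's highest signal. Apoa2 stood at a median rank of 13 among all probe sets, Apoe at 34, Apoc1 at 97, Apoc3 at 100.5, Apob at 102 and Apoa5 at 112.5. Apoc2 stood at a median rank of 633.5, Apom at 792 and Apoa4 at 1275. Levels of different probe sets do not compare the amounts of the messages, so these ranks only place each gene on the scale.

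**Figure D1:**
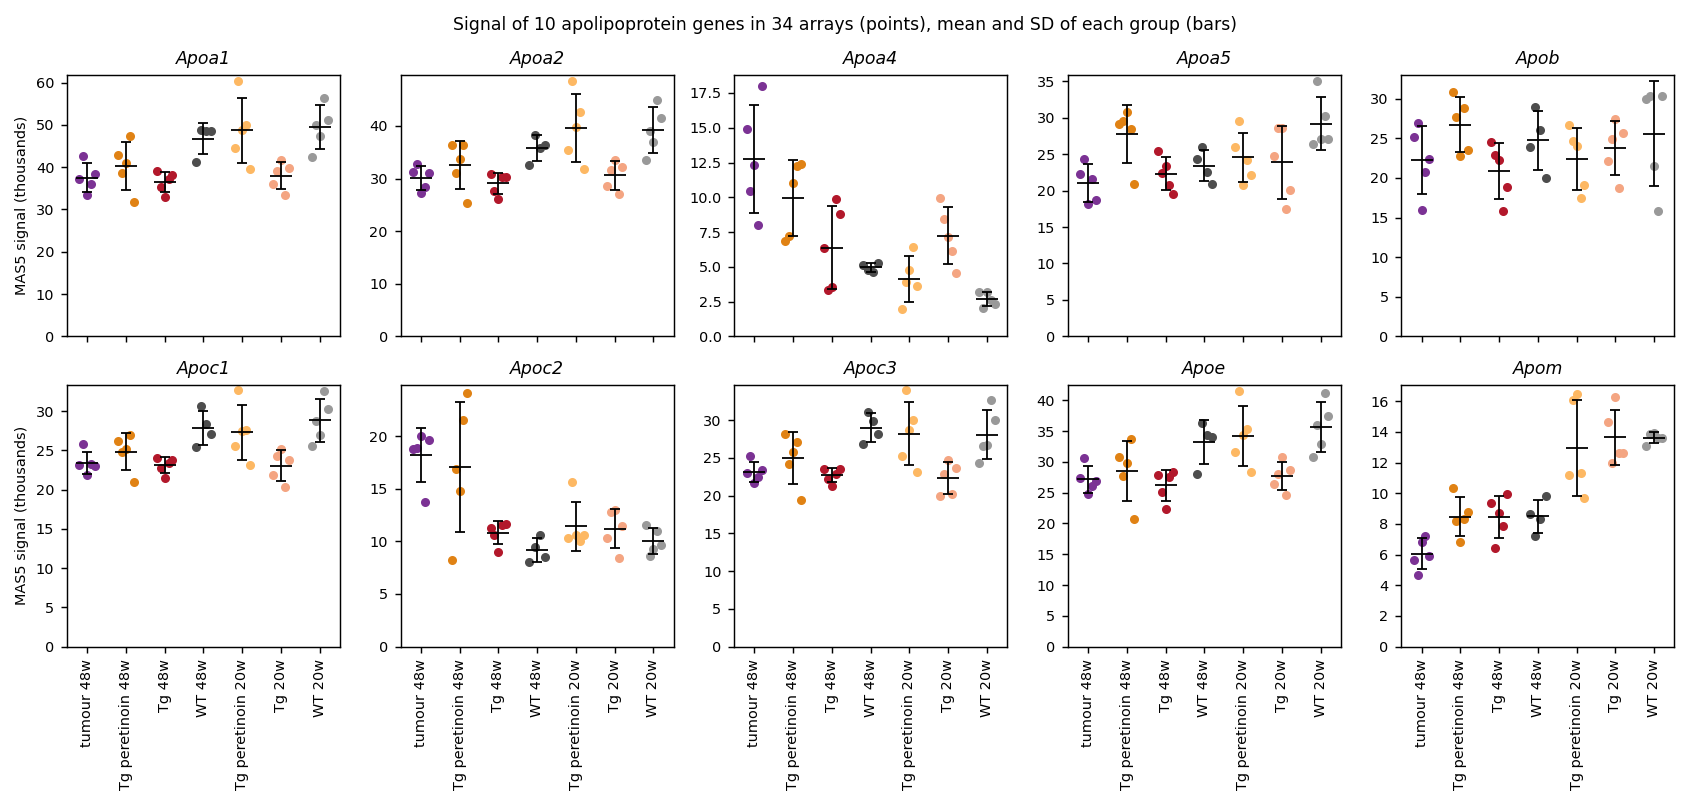
Signal (MAS5, linear axis from 0) of each of the 10 genes in the 34 arrays. Points are arrays, the long bar is the group mean and the whiskers are 1 SD, with 4 or 5 arrays a group. Apoa4, Apoc2 and Apom spread furthest between groups, while Apoa1, Apoa2, Apoc1, Apoc3 and Apoe repeat one pattern.

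The 5 brightest members moved with the top of the signal scale on each array. As a measure of that top, the mean log2 signal of the 100 brightest probe sets that belong to none of the 10 genes was taken on each array. Over the 34 arrays its Pearson correlation with the log2 signal was 0.968 for Apoa1, 0.950 for Apoa2, 0.988 for Apoc1, 0.967 for Apoc3 and 0.953 for Apoe (Spearman's rho 0.958, 0.939, 0.987, 0.961 and 0.961 in the same order). The same correlation was 0.610 for Apoa5, 0.305 for Apom, 0.279 for Apob, -0.169 for Apoc2 and -0.449 for Apoa4. Within groups, after subtraction of each group's mean, the brightest 5 kept a correlation of 0.949 to 0.987. Apoa5 had 0.586, Apob 0.229, Apom 0.197, Apoc2 0.167 and Apoa4 0.008. Apob thus did not follow, though its mean signal (23730) was close to that of Apoc3 (25390). Without the 2 arrays farthest from the median, the brightest 5 had 0.929 to 0.984. These are descriptions: the points share their arrays and their scaling.

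**Figure D2:**
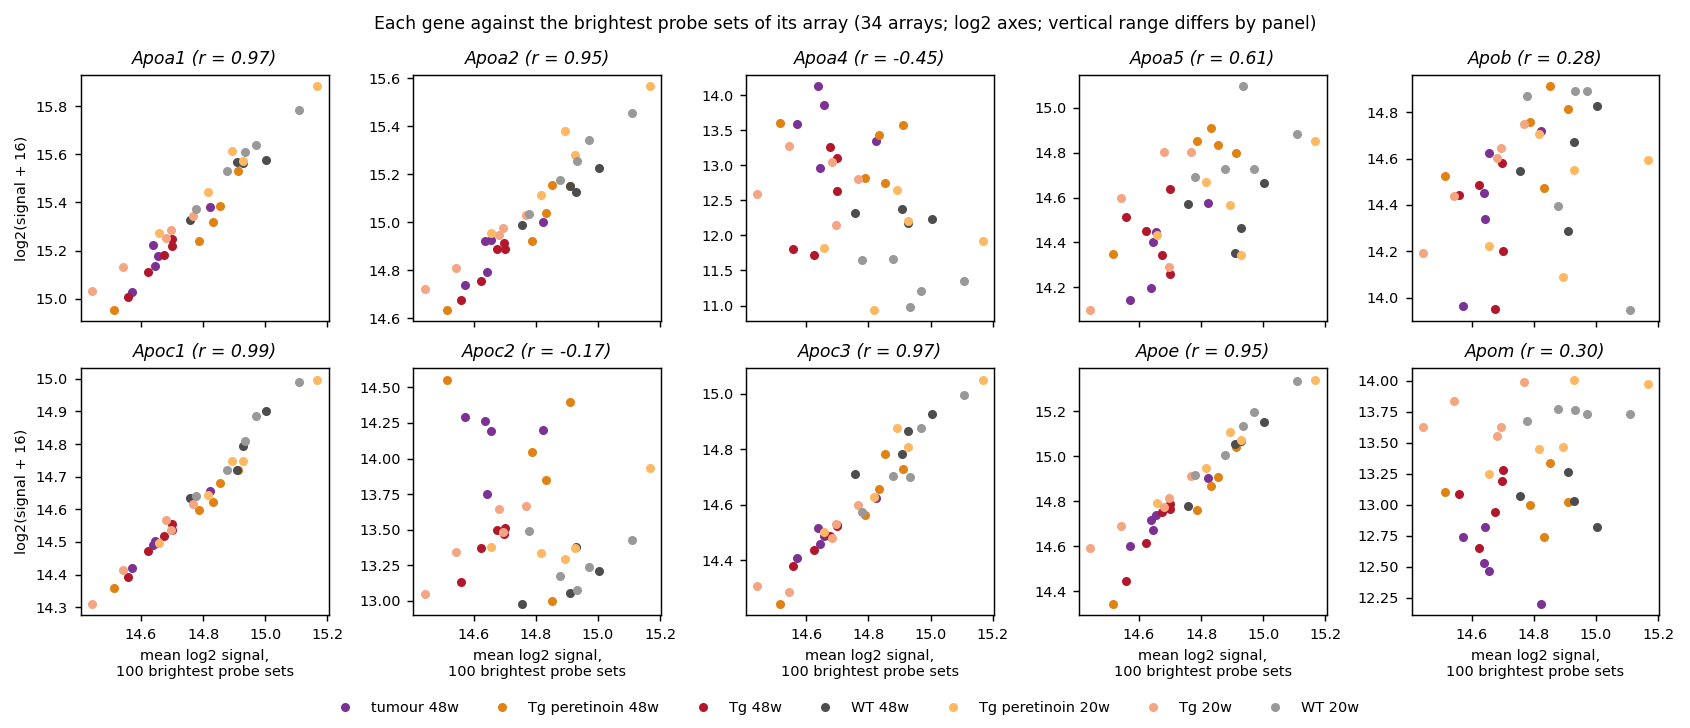
Log2(signal + 16) of each gene (vertical, range differs by panel) against the mean log2 signal of the 100 brightest probe sets outside the list (horizontal), 34 arrays, coloured by group. Apoa1, Apoa2, Apoc1, Apoc3 and Apoe lie along a line (r from 0.950 to 0.988). Apoa4, Apob, Apoc2 and Apom do not (r from -0.449 to 0.305), and Apoa5 lies between (r = 0.610).

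The spread showed the same division. The within-group SD of Apoa1 was 0.160 log2 units as deposited and 0.047 once the mean of the 100 brightest probe sets was subtracted on each array; for Apoc1 the values were 0.127 and 0.021. For Apoa4 they were 0.484 and 0.499, and for Apoc2 0.306 and 0.311. Among the bright genes, Apob had 0.277 and 0.277, and Apoa5 0.206 and 0.167. The highest signal of an array lay between 33471 and 41619 in transgenic livers and between 43738 and 56436 in wild-type livers at week 20, and between 35396 and 38963 in transgenic livers and between 41431 and 54912 in wild-type livers at week 48. The mean signal of arrays did not carry this difference, since the authors' scaling put the mean of each array, without the highest and lowest 2% of signals, at 500.003 to 500.004. Array saturation cannot be read from the deposited signals, and its part in these values was not tested.

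The first comparison asks what the Pdgf-c transgene, carried by mice that develop liver fibrosis and tumours per the series title, does to each apolipoprotein. At week 20, Apoa4 rose and Apoa1, Apoa2, Apoc1, Apoc3 and Apoe fell in transgenic livers, at a Benjamini-Hochberg adjusted p under 0.05 over all genes tested. With these 6 of 10 called, 1 higher and 5 lower, the background was 23.7% of all genes called, 15.8% higher and 7.87% lower. The median change of the 10 genes was -0.31 (log2), beside 0.06 over all genes. Apoa5, Apob, Apoc2 and Apom did not pass the test.

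Apoa4 gave signals of 9939, 8436, 7151, 6165 and 4523 in the 5 transgenic livers at week 20, against 3207, 2006, 3220, 2598 and 2354 in the 5 wild-type livers. Every transgenic liver lay above every wild-type liver, as did 11.5% of all genes tested. The means were 7243 ± 2078 in transgenic livers and 2677 ± 533 in wild-type livers (SD, n = 5 each), a log2 change of 1.40 ± 0.29 (SE), or 2.65-fold (limma, adjusted p = 0.000458). The other probe set of Apoa4 gave 7444, 7433, 5385, 4317 and 2786 in transgenic livers against 1532, 1001, 1631, 933 and 770 in wild-type livers, a log2 change of 2.18 ± 0.41 (adjusted p = 0.000185). Apoa4 is also an intestinal gene, so the 5 enterocyte markers measured are given beside it: they summed to 5491 to 9332 (median 8328) in transgenic livers and 7579 to 8118 (median 7761) in wild-type livers. Of the 4 tested, 0 were called. Medians were 5303 in transgenic livers and 5268 in wild-type livers for Fabp2, 3298 in transgenic livers and 2461 in wild-type livers for Cdhr5, and 43.6 in transgenic livers and 20.9 in wild-type livers for Vil1. The brush border enzymes Alpi (69.2 in transgenic livers, 90.7 in wild-type livers) and Lct (26.2 in transgenic livers, 10.9 in wild-type livers) were low in both. The part of intestinal transcripts in the Apoa4 values was not tested.

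Because Apoa4 and Apoc2 moved apart from the rest of their clusters, the DNA just before their start sites is shown with that of Apoa1, the cluster neighbour of Apoa4 (RefSeq, GRCm38.p6; 250 bases ending just before the start, 5′ to 3′ on the strand of the gene). They are at chr9:46240594-46240843 on the plus strand for Apoa4, chr7:19677942-19678191 on the minus strand for Apoc2 and chr9:46228380-46228629 on the plus strand for Apoa1. Capitals mark matches to 2 of the spellings of a nuclear receptor half-site or repeat that were searched on both strands.
Apoa4: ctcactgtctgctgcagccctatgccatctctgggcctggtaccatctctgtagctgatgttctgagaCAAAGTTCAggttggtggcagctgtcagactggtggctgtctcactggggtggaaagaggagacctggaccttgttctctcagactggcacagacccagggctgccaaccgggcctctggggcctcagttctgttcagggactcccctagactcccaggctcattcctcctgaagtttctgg
Apoc2: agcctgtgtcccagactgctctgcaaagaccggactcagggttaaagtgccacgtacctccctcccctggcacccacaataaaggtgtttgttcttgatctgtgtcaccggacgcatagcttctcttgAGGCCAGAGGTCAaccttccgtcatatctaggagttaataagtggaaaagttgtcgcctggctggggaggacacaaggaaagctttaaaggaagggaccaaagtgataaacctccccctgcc
Apoa1: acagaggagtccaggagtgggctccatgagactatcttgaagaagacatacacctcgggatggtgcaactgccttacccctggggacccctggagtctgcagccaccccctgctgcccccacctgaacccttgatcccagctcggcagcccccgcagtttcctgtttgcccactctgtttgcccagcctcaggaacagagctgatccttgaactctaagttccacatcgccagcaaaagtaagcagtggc

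The capitals in Apoa4 are a match to CAAAGNNCA, 182 to 174 bases before the start, and those in Apoc2 a match to AGGNCA repeated in the same direction with any 1 base between, 122 to 110 bases before it; that repeat holds a match to the shorter AGGTCA, at 115 to 110. Apoa1 had no match to any of the 3 spellings in this window. Over all 32851 promoters of the table in the same window, 5.49% held CAAAGNNCA, 0.338% held the repeat and 14.0% held AGGTCA. Of the 8 genes with an entry, CAAAGNNCA was also found for Apob and AGGTCA also for Apoa2. The spellings were chosen after the sequences were read, and a match is a description of letters only.

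The HDL proteins Apoa1 and Apoa2 were lower in transgenic livers at week 20. Apoa1 lay between 33471 and 41619 (median 38978) in transgenic livers and between 42349 and 56436 (median 50043) in wild-type livers, with no overlap, as for 4.65% of all genes in this direction. Its log2 change was -0.38 ± 0.10 (adjusted p = 0.00589), and the other 3 probe sets of Apoa1 gave -0.35, -0.34 and -0.41, all called. Apoa2 lay between 26980 and 33472 in transgenic livers and between 33551 and 44976 in wild-type livers, a change of -0.36 ± 0.10 (adjusted p = 0.00969).

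Apoe, the receptor ligand of remnants, fell by 0.36 (adjusted p = 0.0147). Apoc1 and Apoc3, which slow lipase action and particle uptake, fell by 0.32 (adjusted p = 0.00530) and 0.33 (adjusted p = 0.0122). Thus the 5 called falls lay within a narrow band, 1.25-fold to 1.30-fold. The mean of the 100 brightest probe sets outside the list changed by -0.31 ± 0.08 in the same comparison, with no overlap between the groups. Of the 62 tested genes among them, 43 were called lower and 0 higher. Relative to that mean, the changes of Apoa1, Apoa2, Apoc1, Apoc3 and Apoe were -0.07 ± 0.04, -0.05 ± 0.04, -0.01 ± 0.04, -0.02 ± 0.04 and -0.05 ± 0.05, and 0 of the 5 were called; on this scale the median of all genes moved by 0.31. Under quantile normalisation Apoa1 changed by 0.05, with the sign turned, and the other 4 by -0.06 to -0.03, none called. Hepatocyte markers as a sum moved the same way: the 8 measured had a median of 190269 in transgenic livers and 224110 in wild-type livers. Of the 8, 3 were called lower. The sum is mostly of genes as bright as the 100, such as Serpina1b (medians 34039 and 41443), so it is not a separate measure. The dimmer markers overlapped between the groups. Hnf4a had a median of 10313 (8024.5 to 12662) in transgenic and 12794 (9474 to 15122) in wild-type livers. Ass1 had 623 (145.5 to 892) in transgenic and 323 (163 to 1126.5) in wild-type livers. The part of either in these 5 falls was not tested.

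Apoa4 was called on both scales: relative to the 100 brightest probe sets its change was 1.71 ± 0.29 (adjusted p = 3.34e-05). On that scale Apoc2, the activator of lipoprotein lipase, was called as well, at 0.46 ± 0.18 (adjusted p = 0.0437), against 0.15 ± 0.18 (adjusted p = 0.587) as deposited. These calls stand beside 5271 of all 13099 genes called on the relative scale, 96.8% of them higher. Apob changed by -0.07 ± 0.17 (95% interval -0.41 to 0.27, adjusted p = 0.795) and Apom by -0.01 ± 0.14 (-0.29 to 0.27, adjusted p = 0.979). The other probe set of Apob gave 0.35 ± 0.36 (adjusted p = 0.526). Apoa5, a helper of lipase action, changed by -0.31 ± 0.13 (adjusted p = 0.0756).

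At week 48, Apoa1, Apoa2, Apoc1, Apoc3 and Apoe again fell in transgenic livers and no member rose. These 5 of 10 called stand beside 20.8% of all genes called and 6.58% called lower. The changes were -0.35 ± 0.11 for Apoa1 (adjusted p = 0.0159), -0.30 ± 0.11 for Apoa2 (adjusted p = 0.0438), -0.27 ± 0.09 for Apoc1 (adjusted p = 0.0279), -0.35 ± 0.10 for Apoc3 (adjusted p = 0.0130) and -0.34 ± 0.12 for Apoe (adjusted p = 0.0341). Apoc3, for example, gave 23541, 22202, 21307, 22925 and 23599 in transgenic livers against 26813, 31132, 29889 and 28199 in wild-type livers, with no overlap. Of the 10 genes, 4 did not overlap, beside 21.4% of all genes (7.54% lower). The 100 brightest probe sets outside the list changed by -0.25 ± 0.09, and relative to them 0 of the 10 genes were called. Under quantile normalisation Apoa1 changed by 0.05, with the sign turned. The number called was 2 without wild-type replicate 2, wild-type replicate 3 or transgenic replicate 3, and 3 without wild-type replicate 4 or transgenic replicate 2. It was 1 without the 3 week 48 and 3 other arrays that carried muscle or acinar transcripts.

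Apoa4 was uneven among the transgenic livers at week 48. It gave 6368, 3354, 3566, 9847 and 8794 in them against 5105, 4797, 4604 and 5302 in the wild-type livers. Of the 5 transgenic livers, 3 lay above all wild-type livers and 2 below all of them, and the change was 0.23 ± 0.30 (95% interval -0.38 to 0.85, adjusted p = 0.638). The highest of them, replicate 4, is the array with both muscle and acinar transcripts. Without the 6 arrays that carried such transcripts the change was 0.07 (adjusted p = 0.914). The transgene's effect on Apoa4 differed between week 48 and week 20 by -1.17 ± 0.42 (adjusted p = 0.214), which did not pass the test, and 0 of the 10 genes were called for this difference, beside 0.275% of all genes.

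**Figure D3:**
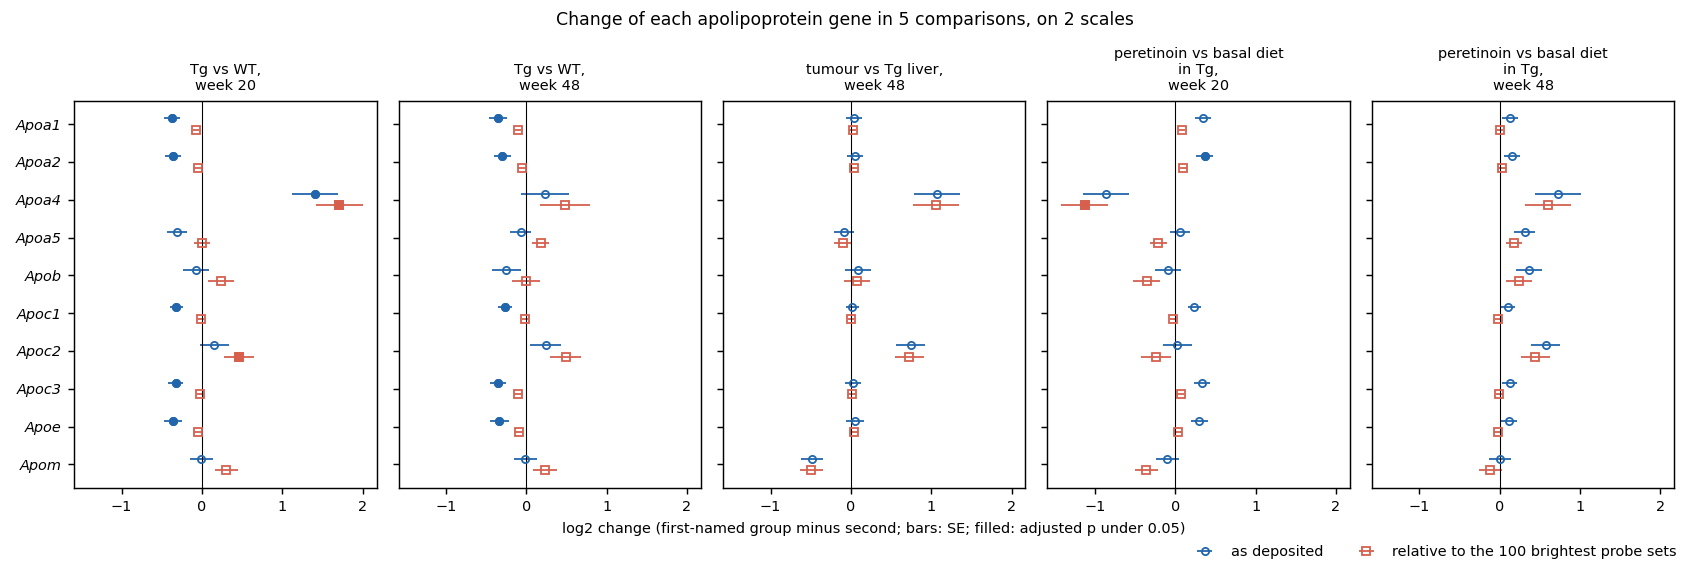
Log2 change ± SE of the 10 genes in 5 comparisons, first-named group minus second. Circles are the deposited scale, squares the scale relative to the 100 brightest probe sets outside the list, and filled marks have an adjusted p under 0.05. The falls of 5 bright genes in transgenic livers, near -0.3, lie close to 0 on the relative scale, and the changes of Apoa4, Apoc2 and Apom in tumours differ little between the scales.

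The next comparison sets tumours against the non-tumour livers of transgenic mice at week 48. No member passed the test, and neither did any of the 13099 genes (0% called; 1075 genes and 3 members had an unadjusted p under 0.05). With array weights, limma called 137 genes, Apoa4 and Apoc2 among them. Without tumour replicate 4 it called 6 genes and no member. The 3 members with an unadjusted p under 0.05 were Apoc2, Apoa4 and Apom.

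Apoc2 gave 18741, 18847, 20011, 13768 and 19631 in tumours against 11306, 10577, 8979, 11587 and 11654 in transgenic livers. Every tumour lay above every liver, as for no other member, beside 1.98% of all genes in either direction and 1.02% in this one. The change was 0.74 ± 0.18, or 1.67-fold (95% interval 0.37 to 1.12 on the log2 scale, adjusted p = 0.217). Apoa4 gave 14896, 10429, 12308, 7995 and 18023 in tumours against 6368, 3354, 3566, 9847 and 8794 in transgenic livers, a change of 1.07 ± 0.29 (0.49 to 1.66, adjusted p = 0.224) with overlap. Apom gave 5647, 4697, 6828, 7207 and 5905 in tumours against 9358, 6407, 8712, 7858 and 9957 in transgenic livers, a change of -0.48 ± 0.14 (-0.76 to -0.20, adjusted p = 0.255), also with overlap.

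The other 7 members differed by no more than 0.09 in size between tumours and livers, among them Apoa1 at 0.04 ± 0.10 (-0.17 to 0.24) and Apob at 0.09 ± 0.17 (-0.25 to 0.43). The other probe set of Apob gave 0.46 ± 0.36 (adjusted p = 0.832). The 100 brightest probe sets outside the list changed by 0.02 ± 0.08. Recruited macrophage markers summed to 5413 to 8065 in tumours and 4543 to 6421 in transgenic livers, and 0 of the 5 were called; their part in the values of Apoc2 and Apoa4 was not tested. The 5 enterocyte markers measured summed to 8560 to 12240 in tumours and 6387 to 7826 in transgenic livers, with no overlap, and 0 of the 4 tested were called. The part of such transcripts in the Apoa4 values of tumours was not tested.

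Against wild-type livers of the same age, tumours had higher Apoa4 and Apoc2 and lower Apoa1, Apoc1, Apoc3 and Apom, 6 of 10 called beside 27.1% of all genes (17.9% higher, 9.21% lower). Apoc2 averaged 18200 ± 2534 in tumours (n = 5) and 9166 ± 1141 in wild-type livers (n = 4), a change of 0.98 ± 0.19 (adjusted p = 0.000259). Apoa4 averaged 12730 ± 3893 in tumours and 4952 ± 312 in wild-type livers, a change of 1.31 ± 0.30 (adjusted p = 0.00145). Both genes lay above all wild-type livers in all 5 tumours, as did 15.6% of all genes. Apom averaged 6057 ± 995 in tumours and 8492 ± 1065 in wild-type livers, a change of -0.49 ± 0.15 (adjusted p = 0.0114), and its other probe set gave -0.50 ± 0.15 (adjusted p = 0.0103). Relative to the 100 brightest probe sets, Apoa4 and Apoc2 alone of the 10 remained called, and Apom changed by -0.26, not called. Those probe sets themselves changed by -0.23 ± 0.09, so on the relative scale every gene's change lay higher by about that amount. Apoa1 fell by 0.32 as deposited and changed by 0.01 under quantile normalisation, and Apoc1 fell by 0.25 and changed by 0.00016, both with the sign turned. The number called was 3 without wild-type replicate 2 or wild-type replicate 3. This comparison shares its wild-type and tumour samples with those above.

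The peretinoin diet was set against the basal diet in transgenic mice. At week 20 Apoa2 rose, the single member called (1 of 10, beside 2.89% of all genes, 1.64% higher and 1.24% lower). It lay between 31797 and 48607 (median 39730) in peretinoin-fed livers and between 26980 and 33472 (median 31576) in livers on the basal diet, with overlap, a change of 0.36 ± 0.10 (adjusted p = 0.0434). Apoa1 at 0.35 ± 0.10 (adjusted p = 0.0518) and Apoc3 at 0.33 ± 0.10 (adjusted p = 0.0522) lay just past the threshold. For 0 of the 10 genes did the groups not overlap, beside 5.02% of all genes (2.05% higher, 2.96% lower). The 100 brightest probe sets outside the list changed by 0.27 ± 0.08, and of their 62 tested genes 11 were called higher and 0 lower. Relative to them, Apoa2 changed by 0.10 ± 0.04 (adjusted p = 0.112). The call of Apoa2 was lost on leaving out any one of 8 of the 10 arrays compared; it held without replicate 5 of the basal diet and without replicate 5 of the peretinoin diet.

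Apoa4 lay lower on the peretinoin diet at week 20 without passing the test. It gave 1942, 3873, 4734, 6432 and 3612 in peretinoin-fed livers against 9939, 8436, 7151, 6165 and 4523 in livers on the basal diet. The groups overlapped, and the change was -0.86 ± 0.29 (95% interval -1.44 to -0.28, adjusted p = 0.0812). Relative to the 100 brightest probe sets it was -1.13 ± 0.29 (adjusted p = 0.0107), a call, though there the median of all genes moved by -0.27. It was called as well without replicate 5 of the basal diet (-1.02, adjusted p = 0.0476) and without replicate 4 of the peretinoin diet (-1.05, adjusted p = 0.0436), with array weights (-0.99, adjusted p = 0.0184) and without the 6 arrays (-1.09, adjusted p = 0.0496). These were the only calls, in 3 of 13 alternatives and 2 of 10 fits without 1 array. Adjusted p reached 0.120 among the alternatives and 0.255 among the fits without 1 array.

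At week 48 no member was called, beside 0.725% of all genes, and 4 had an unadjusted p under 0.05. All 10 overlapped between the groups, beside 2.69% of all genes that did not (1.84% lower). Apoa4 gave 6859, 7227, 11056, 12216 and 12398 in peretinoin-fed livers against 6368, 3354, 3566, 9847 and 8794 on the basal diet, a change of 0.73 ± 0.29 (adjusted p = 0.233). Apoc2 gave 8193, 16875, 14772, 21509 and 24063 in peretinoin-fed livers against 11306, 10577, 8979, 11587 and 11654 on the basal diet, a change of 0.57 ± 0.18 (adjusted p = 0.137). The low value, 8193, belongs to replicate 1, the array with muscle transcripts; the other 4 peretinoin-fed livers lay above all 5 on the basal diet. Without that replicate Apoc2 changed by 0.81 (adjusted p = 0.00729), a call. On the array of replicate 1, Apoa2, Apob, Apoc3 and Apom had the highest signal of the 5 peretinoin-fed livers, and Apoa4, like Apoc2, the lowest. The part of muscle transcripts in the low Apoc2 value was not tested. Apoa5 at 0.31 ± 0.13 (adjusted p = 0.255) and Apob at 0.36 ± 0.17 (adjusted p = 0.320) were the other 2.

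The effect of peretinoin on Apoa4 differed between the ages by 1.59 ± 0.40 (week 48 minus week 20, log2; adjusted p = 0.0547), just past the threshold, and the other probe set gave 2.41 ± 0.58 (adjusted p = 0.0417). None of the 10 genes was called for this difference, beside 0.679% of all genes. Of 20 fits without 1 array, 6 called Apoa4, with changes between 1.35 and 1.78 over all 20. The arrays left out in those 6 were replicates 4 and 5 of the basal diet at week 20, replicate 4 of the basal diet at week 48, replicates 4 and 5 of the peretinoin diet at week 20 and replicate 1 of the peretinoin diet at week 48. It was also called in 3 of 13 alternatives: among the upper 40% of probe sets, with array weights and without the 6 arrays that carried muscle or acinar transcripts.

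Between the ages, Apom fell in both genotypes, the single member called in either. In wild-type livers it gave 8616, 7203, 8351 and 9799 at week 48 against 13083, 13892, 13959, 13576 and 13617 at week 20. The change was -0.69 ± 0.15, a 1.61-fold fall (adjusted p = 0.00487), beside 6.88% of all genes called and 4.47% called lower. In transgenic livers it gave 9358, 6407, 8712, 7858 and 9957 at week 48 against 14663, 11987, 16266, 12654 and 12643 at week 20, a change of -0.70 ± 0.14 (adjusted p = 0.00111), beside 15.7% called (5.99% higher, 9.76% lower). In both genotypes all week 48 livers lay below all week 20 livers, as for 5.32% of all genes in wild-type livers and 8.83% in transgenic livers (5.47% the other way). Both calls held in every fit without 1 array and in all 13 alternatives. The other probe set of Apom gave a smaller fall, -0.33 ± 0.15 in wild-type livers (adjusted p = 0.184) and -0.27 ± 0.14 in transgenic livers (adjusted p = 0.185), not called, so the probe sets disagree in size. Whether the ages were processed together is not given in the sources used here.

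Over the 7 groups, Apom was lowest in tumours (6057 ± 995), lay between 8458 and 8492 in the means of the 3 groups of liver at week 48, and between 12950 and 13640 in those at week 20. On log2 signals, here and below, neighbouring groups in this order differed by more than the larger SD at 2 steps. These were between tumours and transgenic livers at week 48, and between wild-type livers at week 48 and peretinoin-fed livers at week 20. The latter step was absent in the other probe set of Apom. There peretinoin-fed livers at week 20 averaged 7788 ± 1161, and at week 48 wild-type livers 7661 ± 1058 and transgenic livers 7695 ± 1217. Apoc2 was highest in tumours (18200 ± 2534) and in peretinoin-fed livers at week 48 (17080 ± 6179), and the means of the other 5 groups lay between 9166 and 11430; no neighbours in its order differed by more than the larger SD. For Apoa4 the order was tumours (12730 ± 3893), peretinoin-fed livers at week 48 (9951 ± 2708), transgenic livers at week 20 (7243 ± 2078) and week 48 (6386 ± 2955), wild-type livers at week 48 (4952 ± 312), peretinoin-fed livers at week 20 (4118 ± 1642) and wild-type livers at week 20 (2677 ± 533). In that order a step beyond the larger SD of log2 signals occurred once, between peretinoin-fed livers at week 48 and transgenic livers at week 20 (0.461 against an SD of 0.435).

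The wild-type livers showed an age difference in Apoa4 as well, without passing the test. It gave 5105, 4797, 4604 and 5302 at week 48 against 3207, 2006, 3220, 2598 and 2354 at week 20, with no overlap, and changed by 0.90 ± 0.30 (adjusted p = 0.0645). Apoa5 in wild-type livers did not overlap either, at 20930 to 25932 in week 48 and 26429 to 35060 in week 20 (-0.31 ± 0.13, adjusted p = 0.166). With Apom these make 3 of 10 without overlap, beside 8.84% of all genes (3.52% higher).

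The genes that act with the apolipoproteins were read from 5 lists. Of 12 genes of VLDL assembly and secretion, 4 fell and 0 rose in transgenic livers at week 20, and 7 fell and 0 rose at week 48, beside 7.87% and 6.58% of all genes called lower at these ages. Mttp, which loads lipid onto Apob, averaged 6253 ± 744 in transgenic livers and 8941 ± 297 in wild-type livers at week 48 (-0.52 ± 0.12, adjusted p = 0.00231). Sar1b, the coat protein of the vesicles that carry such particles out of the endoplasmic reticulum, fell at both ages, by 0.51 at week 20 (adjusted p = 6.60e-05) and 0.39 at week 48 (adjusted p = 0.00284). At week 20 Surf4, a cargo receptor of the same route, fell by 0.57 (adjusted p = 0.0108), Cideb by 0.37 (adjusted p = 0.00220) and Mttp by 0.38 (adjusted p = 0.0160). Dgat2, which makes triglyceride, fell by 0.61 at week 48 (adjusted p = 0.00277). Cidea, a lipid droplet protein, averaged 103 ± 111 in transgenic livers at week 48 and 4132 ± 1798 in wild-type livers (-5.59 ± 0.82, adjusted p = 8.43e-06). The list's median was -0.39 at week 48, beside 0.04 over all genes. The counts depended on the scaling. At week 20, 2 were lower and 1 higher under quantile normalisation, 5 lower under median centring, and 1 lower and 2 higher relative to the 100 brightest probe sets. At week 48, 6 were lower under quantile normalisation, 3 lower under median centring, and 2 lower and 1 higher relative to the 100 brightest probe sets. On this last scale 5271 of all 13099 genes were called at week 20, 96.8% of them higher. Of the calls over all genes at week 48, 94.7% were higher.

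Peretinoin at week 48 raised Mttp by 0.46 ± 0.12 (adjusted p = 0.0485), to a mean of 8702 ± 1769 against 6253 ± 744 on the basal diet, with no overlap. It was not called under quantile normalisation (0.44, adjusted p = 0.103) or relative to the 100 brightest probe sets (0.34, adjusted p = 0.262). Mttp was the single gene of its list called in that comparison, beside 0.725% of all genes.

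Of 14 genes of HDL formation, remodelling and lipases, 2 rose and 1 fell in transgenic livers at week 20, and 4 rose and 6 fell at week 48, beside 23.7% of all genes called in either direction at week 20 and 20.8% at week 48; the week 20 count is near that share. Lpl, lipoprotein lipase, which is low in the adult hepatocyte and is the enzyme that Apoc2 activates, rose by 1.85 ± 0.34 at week 20 (adjusted p = 0.000112) and by 2.78 ± 0.36 at week 48 (adjusted p = 1.07e-06). At week 48 it averaged 14300 ± 2780 in transgenic livers and 2333 ± 1575 in wild-type livers. The sterol exporters Abcg5 (1.19 ± 0.23, adjusted p = 0.000321) and Abcg1 (0.85 ± 0.19, adjusted p = 0.00134) rose at week 48 (Abcg1 also at week 20, by 0.54, adjusted p = 0.0268), and Lmf1, a chaperone of lipases, fell by 0.73 (adjusted p = 0.000697). Pon1, an HDL-borne esterase, fell by 0.33 at week 20 (adjusted p = 0.0497). Under median centring 1 rose and 2 fell at week 20, and 4 rose and 3 fell at week 48. Relative to the 100 brightest probe sets, 5 rose and 0 fell at week 20, and 4 rose and 1 fell at week 48. On that scale 5271 of all 13099 genes were called at week 20, 96.8% of them higher. The week 20 count of the list is near that share. All 5 recruited macrophage markers tested were called higher at both ages: at week 48 they summed to 4543 to 6421 in transgenic livers and 927 to 1271 in wild-type livers. Their part in the values of Lpl and Abcg1, which macrophages also make, was not tested.

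Of 11 lipoprotein receptor and uptake genes, 3 rose (Stab1, Lsr and Scarb1, the HDL receptor, by 0.43 to 0.57) and 1 fell (Sort1, by 0.47, adjusted p = 0.0112) in transgenic livers at week 20, beside 15.8% of all genes called higher and 7.87% lower, so that 1 lower of 11 is near the background. None was called at week 48, where Lsr changed by 0.32 ± 0.15 (adjusted p = 0.134) and Msr1 by 0.55 ± 0.33 (adjusted p = 0.263). Under median centring 0 rose and 1 fell at week 20. Relative to the 100 brightest probe sets, 7 rose at week 20 and 2 at week 48, and 0 fell. That scale called 5271 of all 13099 genes at week 20, 96.8% of them higher, and 94.7% of its calls at week 48 were higher. Of 14 apolipoproteins and related genes outside the 10, 7 fell at week 20 and 4 at week 48, and 0 rose, beside 7.87% and 6.58% of all genes called lower. Under quantile normalisation 4 were lower at week 20 and 1 at week 48, and under median centring 8 and 1. Saa4, a constitutive HDL protein, had the smallest p: it averaged 8372 ± 1036 in transgenic livers and 16980 ± 4347 in wild-type livers at week 20 (-0.99 ± 0.19, adjusted p = 0.000222), and fell by 1.13 at week 48 (adjusted p = 0.000114). Saa4 stayed called at both ages relative to the 100 brightest probe sets (-0.69 and -0.88), while Apof, an inhibitor of lipid transfer, fell by 0.36 at week 20 as deposited and changed by -0.06 on that scale (adjusted p = 0.563). As deposited, Apon fell by 0.40 at week 20 (adjusted p = 0.00142) and 0.37 at week 48 (adjusted p = 0.00489), Clu by 0.31 at week 20 (adjusted p = 0.00713), and Apof by 0.33 (adjusted p = 0.00347) and Apoh by 0.34 (adjusted p = 0.00701) at week 48. Relative to the 100 brightest probe sets 1 of the 14 was lower at each age, and 3 were higher at week 48.

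Of 23 transcription factors known to act on apolipoprotein genes, 2 rose and 1 fell at week 20, and 4 fell at week 48. The shares called in either direction are below the 23.7% and 20.8% of all genes called at these ages. At week 48 all 4 calls were falls, a larger share than the 6.58% of all genes called lower. The list's median was then -0.36, beside 0.04 over all genes. Creb3l3, a membrane-bound factor of the liver known to drive Apoa4, Apoc2 and Apoa5, averaged 4496 ± 424 in transgenic livers and 7850 ± 808 in wild-type livers at week 48, a change of -0.80 ± 0.11 (adjusted p = 2.97e-06). Hnf4a, a main hepatocyte regulator, fell by 0.53 at week 48 (adjusted p = 0.00684), Mlxipl by 0.93 (adjusted p = 0.0119) and Nr1h3 by 0.40 (adjusted p = 0.0130). At week 20 Ppargc1a rose by 1.64 ± 0.43 (adjusted p = 0.00555), Rara, a retinoic acid receptor, by 1.22 ± 0.42 (adjusted p = 0.0320), and Nr0b2 fell by 1.01 (adjusted p = 0.0134). Peretinoin at week 48 raised Creb3l3 by 0.56 ± 0.10 (adjusted p = 0.00528), to 6631 ± 823 against 4496 ± 424 on the basal diet, with no overlap; relative to the 100 brightest probe sets the change was 0.43 (adjusted p = 0.109), not called. Creb3l3 remained lower in transgenic livers at week 48 relative to the 100 brightest probe sets (-0.55, adjusted p = 0.00357), and Hnf4a was then not called (-0.28, adjusted p = 0.0977). On that scale 6 factors rose and 0 fell at week 20, and 2 rose and 1 fell at week 48. Over all genes it called 5271 of 13099 at week 20, 96.8% of them higher, a larger share than 6 of 23. Under median centring 1 rose and 2 fell at week 20, and 3 fell at week 48. In tumours against transgenic livers, 0 genes of any of the 5 lists were called; Cidea changed by 2.48 ± 0.77 (adjusted p = 0.313) and Vldlr by -1.36 ± 0.60 (adjusted p = 0.541). The other genes among the 2 of smallest p in each list were Stx5a (-0.36), Pon1 (-0.33), Pcsk6 (0.15), Sort1 (-0.26), Apoc4 (-0.16), Saa4 (-0.26), Ppargc1a (-0.76) and Nr5a2 (-0.30), with adjusted p between 0.386 and 0.887.

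Peretinoin called 0 genes of the 5 lists at week 20, beside 2.89% of all genes. The 2 of smallest p in each list there were Arf1 (-0.32) and Mia2 (-1.11) for VLDL, Lcat (-0.30) and Bmp1 (-0.30) for HDL, Mylip (-0.75) and Scarb1 (-0.41) for the receptors, Clu (0.27) and Apoc4 (0.30) for the other apolipoproteins, and Mlxipl (0.81) and Ppargc1a (-1.33) for the factors, with adjusted p between 0.0653 and 0.163. At week 48 Mttp and Creb3l3 were called, beside 0.725% of all genes. The lists with no call at week 48 were led by Angptl4 (1.33) and Bmp1 (0.34), Mylip (-0.66) and Sort1 (-0.28), and A1cf (-0.82) and Clu (0.18), with adjusted p between 0.121 and 0.356.

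**Figure D4:**
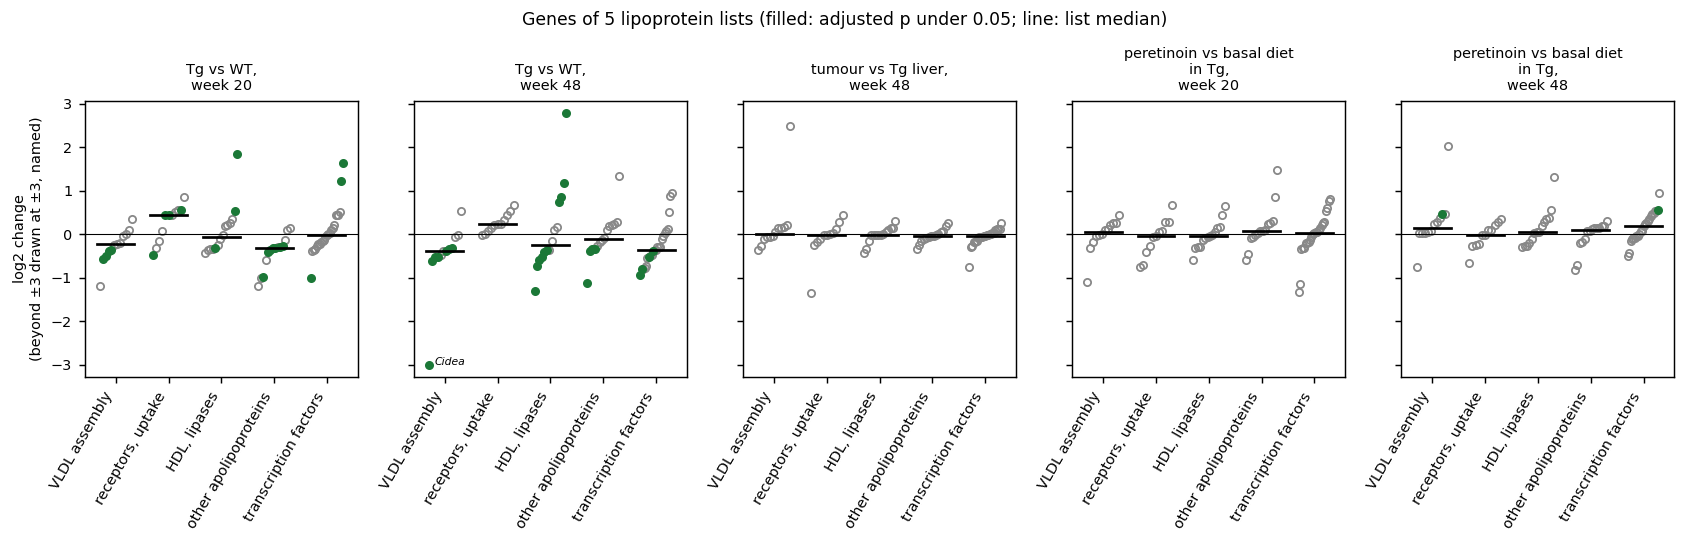
Log2 change of each gene of 5 lists in the 5 comparisons, first-named group minus second. Filled points have an adjusted p under 0.05, the line is the list's median, and Cidea at week 48 (-5.59) is drawn at the edge of the axis. In transgenic livers at week 48, 7 of 12 VLDL genes are filled and below 0, and no gene is filled for tumours against livers.

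The members varied together in 2 ways. Among Apoa1, Apoa2, Apoc1, Apoc3 and Apoe, pairwise correlations over the 34 arrays lay between 0.936 and 0.983. After subtraction of the 100 brightest probe sets, Apoa1 kept 0.858 with Apoa2 and 0.874 with Apoe, and had 0.259 with Apoc1. Apoa4 and Apoc2, which lie on different chromosomes, correlated at 0.675 over the arrays, 0.390 within groups and 0.768 after that subtraction. Apoa4 and its cluster neighbour Apoa1 had -0.503 over the arrays and 0.092 within groups.

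The genes most like each member over the 34 arrays followed the same division. For Apoa1 they were Selenop (r = 0.984), Hpx (0.983) and Serpina1c (0.976), and for Apoc1 Atp5g3 (0.981), Mgst1 (0.979) and Eef1a1 (0.979), with mean signals between 21190 and 32350. Apoa2 was led by Selenop (0.985), Cyp3a11 (0.981) and Hpx (0.979), Apoc3 by Atp5g3 (0.970), Uqcrb (0.964) and Mgst1 (0.964), and Apoe by Hpx (0.983), Serpina1b (0.982) and Selenop (0.981). For Apoa4 they were Ywhah (0.832), Ubd (0.807) and Stx7 (0.800), and over the 7 group means Prex1 (0.982), Maea (0.978) and Map7d1. For Apoc2 they were Cd14 (0.845), Tceal8 (0.832) and Sprr1a (0.830), and over group means Cd151 (0.984), Krt88 and Sprr1a (0.970). For Apom they were Tle1 (0.863), Ubxn6 (0.841) and Trmt1 (0.838). Apoa5 had lower values with Ttpa (0.770), Acadvl (0.739) and Cox4i1 (0.731), as had Apob with Atad2b (0.682), Ddx3x (0.681) and Usp7 (0.677). Over the 7 group means the leading genes were Hpx, Selenop and Xbp1 for Apoa1, Selenop, Tpt1 and Alb for Apoa2, Rdh7, Atp5g3 and Eef1a1 for Apoc1, Gm14634, Atp5g3 and Mgst1 for Apoc3, and Plcxd2, Serpina1b and Selenop for Apoe, with r between 0.989 and 0.996. They were Pld6, Gclm and Stradb for Apoa5, Npb, Vnn3 and Slc2a2 for Apob, and Atg4d, Slc25a28 and Mir22hg for Apom, with r between 0.959 and 0.985.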

How the data were processed

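Total RNA of 34 liver and tumour samples was hybridised to Affymetrix mouse arrays, 1 array per sample. The authors deposited linear signal intensities, for which the submitters' processing notes name MAS5 without a version; the mean of each array without the highest and lowest 2% of signals was 500.003 to 500.004. No row was a count, so no depth or count interval applies.

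Signals were taken as log2(signal + 16). Of 45101 probe sets, 64 controls were left out, the 60% of highest mean signal kept, and 1 probe set per gene used, the brightest with a single symbol in the platform table (34945 had 1 symbol, 932 several and 9160 none). A single model of 7 groups was fitted over 13099 genes with limma 3.58.1 in R 4.3.3 (lmFit, eBayes with intensity trend). Each of 10 comparisons was adjusted by Benjamini-Hochberg over all genes, and a gene was called at an adjusted p under 0.05, two-sided. Errors are moderated SE for log2 changes and SD for signals. On data simulated for transgenic against wild-type livers at week 20, over 13099 genes, the fit recovered 43.3% of 1.5-fold, 83.6% of 2-fold and 98.5% of 4-fold changes, with 9 false among 159 calls. The simulated noise was independent between genes, unlike the shared variation of the bright genes, so the false calls do not carry over to these data. No change as small as the reported falls of 1.25-fold to 1.30-fold was simulated.

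The members and the 5 lists were chosen with earlier results of these data known. The genes named are all 10 members; from each list, in each of the 5 main comparisons, the 4 of smallest p where called, otherwise the 2 of smallest p; and the 3 genes most correlated with a member over arrays and over group means. Some genes of the lists are not analysed here. Alternatives were other offsets, scalings, filters, probe set choices, variance models, array subsets and leaving out each array.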

Additional observations from a re-analysis of the deposited data

Results flagged for a closer look

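Each of the 10 genes was checked in each of the 7 groups for 1 array far from the others, by Dixon's test at its 95% level, and 4 of 70 stood out; chance alone picks out about 1 in 20. Apoa1 gave 41118 in wild-type replicate 1 at week 48, below the other 3. Apoa5 gave 20868 in replicate 5 of the peretinoin diet at week 48, below the other 4. Apoc2 gave 13768 in tumour replicate 4, below the other 4 tumours. Apoc2 gave 15600 in replicate 2 of the peretinoin diet at week 20, above the other 4.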

How the results depend on the processing

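The count of members called depended on the scaling in some comparisons and on array weights, filters or the arrays kept in others. Transgenic against wild-type livers at week 20 had 6 called, and 1 under quantile normalisation, 2 when centred on the 100 brightest probe sets, and 4 to 7 on leaving out 1 array. At week 48 it had 5, and 0 under quantile normalisation, 0 under median centring, 0 when centred on the brightest, 2 with no filter, 1 without the 6 arrays carrying muscle or acinar transcripts (chosen after seeing the data), and 2 to 5 on leaving out 1 array. Apoa1 changed sign under quantile normalisation, to 0.0483 at week 20, 0.0506 at week 48 and 0.0103 in tumours against wild-type livers, and Apoc1 to 0.00016 in the last; sign changes are given only where a fit made a call. Tumours against transgenic livers had 0, and 2 with array weights. Peretinoin at week 20 had 1, and 3 with an offset of 64, 0 under quantile normalisation or median centring, 3 in the upper 40% of probe sets, 0 with no filter, 0 without the intensity trend, 6 with array weights, 4 without the 6 arrays, 0 with only the arrays compared, and 0 to 5 on leaving out 1 array. Peretinoin at week 48 had 0, and 1 with array weights or without the 6 arrays, and 0 to 1 on leaving out 1 array. The difference of the peretinoin effect had 0, and 1 in the upper 40%, with array weights or without the 6 arrays, and 0 to 1 on leaving out 1 array. Tumours against wild-type livers had 6, and 3 under quantile normalisation, 2 under median centring, 2 when centred on the brightest, and 3 to 7 on leaving out 1 array. Wild-type week 48 against week 20 had 1, and 2 with only the arrays compared. The cause of these changes was not tested.

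With the replicate number as a block, peretinoin at week 20 had 2 members called and wild-type week 48 against week 20 had 2; the other 8 counts stayed within 1.5 times. Correlations of deviations between same-numbered samples ran from -0.08 to 0.432. They were over 0.1 for every pair in none of the 5 main comparisons, but for 4 of 5 pairs (0.077 to 0.29) between tumours and transgenic livers. Median centring moved the median of all genes by -0.13 at week 20 and by 0.12 in transgenic week 48 against week 20, and its share of higher calls was 46.7% at week 20 and 84.5% at week 48; quantile normalisation gave 54.6% at week 20. Of the 62 tested genes among the 100 brightest probe sets outside the list, 43 were called lower in transgenic livers at week 20. The background counts moved too. Centred on the 100 brightest probe sets, genes called were 5271 against 3102 at week 20 (96.8% higher) and 2430 against 378 for peretinoin at week 20 (1.93% higher), and calls at week 48 were 94.7% higher. Peretinoin at week 20 called 163 with median centring, 1516 with array weights, 658 without the 6 arrays, 229 with only the arrays compared, and 51 to 879 on leaving out 1 array. Peretinoin at week 48 called 95, and 53 under quantile normalisation, 55 under median centring, 40 without the 6 arrays, 4 with only the arrays compared and 26 to 180 on leaving out 1 array. Wild-type week 48 against week 20 called 901, and 339 centred on the brightest and 302 with only the arrays compared. In transgenic livers the age comparison called 2063, and 3377 with array weights. Tumours against transgenic livers called 137 with array weights, 4 without the 6 arrays and 6 without tumour replicate 4.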
